A study of Homo sapiens with 8 samples.

Results

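Transcripts of the cholesterol synthesis pathway and of its SREBP regulators were followed through Ago2-immunoprecipitation in L1236 cells, a cell line established from Hodgkin lymphoma with high endogenous miR-155. The members were 8 genes fixed by name, namely HMGCS1, IDI1, FDFT1, SQLE, SCD, INSIG1, SREBF1 and SREBF2, out of 16557 genes that could be named on the array. They were chosen with earlier results of these data known. All probes whose array accession maps to one of these genes were taken, which gave 12 probes. Each of the 12 was well above background in all 8 channels, and all 12 were among the 22470 kept probes of 41000.

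L1236 cells had been transduced with a retroviral vector carrying either no insert (empty vector, EV) or a miR-155 sponge (miR-155-sp), a transcript with repeated binding sites that competes for miR-155, and each population was 1 sorted culture carrying the vector's GFP marker. Total RNA (the T fraction) and the RNA recovered with an antibody against Ago2 (the IP fraction) were taken from both populations, which gives 4 groups of 1 RNA sample. Every RNA sample was labelled once with Cy3 and once with Cy5, and IP and T of 1 population shared an array, so that 4 two-colour arrays on 1 slide gave 8 labelled samples. An error given as ± SD is therefore the spread over the 2 dyes, or over the 2 dye orientations for an IP/T ratio (n = 2), and covers labelling and hybridisation but not cultures or precipitations. A group of 1 RNA sample allows no test, so differences are described by their size and dye spread alone. Detection was poorest in sponge T labelled with Cy5, where 54.1% of spots exceeded background clearly, and the remaining 7 labelled samples had between 61.0% and 65.7%. Mature miR-155 itself was not measured here.

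Cholesterol is built from acetyl-CoA through mevalonate, isoprenoid and squalene intermediates in the endoplasmic reticulum and cytosol. When sterols in the endoplasmic reticulum membrane fall, the escort protein SCAP carries the SREBP precursors, encoded by SREBF1 and SREBF2, to the Golgi, where they are cleaved and release transcription factors that switch on the enzymes and INSIG1. INSIG1 in turn holds SCAP in the endoplasmic reticulum, which closes the loop. Ago2 carries microRNAs and the transcripts they pair with, so a transcript bound by microRNA-loaded Ago2 is expected to be recovered in the IP fraction.

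The microRNA that the sponge competes for and the 2 microRNAs that lie inside the SREBP genes are shown because the sponge was built against the first and because the array measured only the host transcripts of the others. The mature sequences and positions are those of RefSeq (GRCh38.p14), written 5′ to 3′ with the seed, bases 2 to 8, in capitals.
hsa-miR-155-5p: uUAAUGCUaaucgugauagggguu
hsa-miR-33a-5p: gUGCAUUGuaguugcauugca
hsa-miR-33b-5p: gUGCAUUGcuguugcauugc
hsa-miR-155-5p lies at chr21:25573983-25574006 on the plus strand. hsa-miR-33a-5p lies at chr22:41900949-41900969 on the plus strand, within the span of SREBF2, and hsa-miR-33b-5p at chr17:17813897-17813916 on the minus strand, within the span of SREBF1. Both miR-33 sequences share the seed UGCAUUG, which differs from the miR-155 seed UAAUGCU. Target sites in the members' transcripts were not analysed here.

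Among the members, the enzymes and INSIG1 lay on one side of the IP/T comparison and the SREBP genes on the other, in both populations. In EV cells the IP/T ratio came to 2 or more for 4 of the 12 member probes, against 17.5% of all kept probes, and these were both HMGCS1 probes, INSIG1 and SQLE. A ratio of 0.5 or less was seen for 3 of the 12, against 19.0% of all kept probes, and these were both SREBF1 probes and SREBF2. In sponge cells the counts were 3 of 12 at 2 or more (17.5% of all kept probes), without SQLE, and 2 of 12 at 0.5 or less (17.8% of all kept probes), without SREBF2. Over the 12 probes EV cells had a median log2 IP/T of 0.62 ± 0.12 and sponge cells one of 0.60 ± 0.16, where the medians of all kept probes were -0.16 ± 0.01 and -0.13 ± 0.03. Single members ranged from -1.14 to 2.65 in EV cells, so the median describes few of them.

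**Figure D1:**
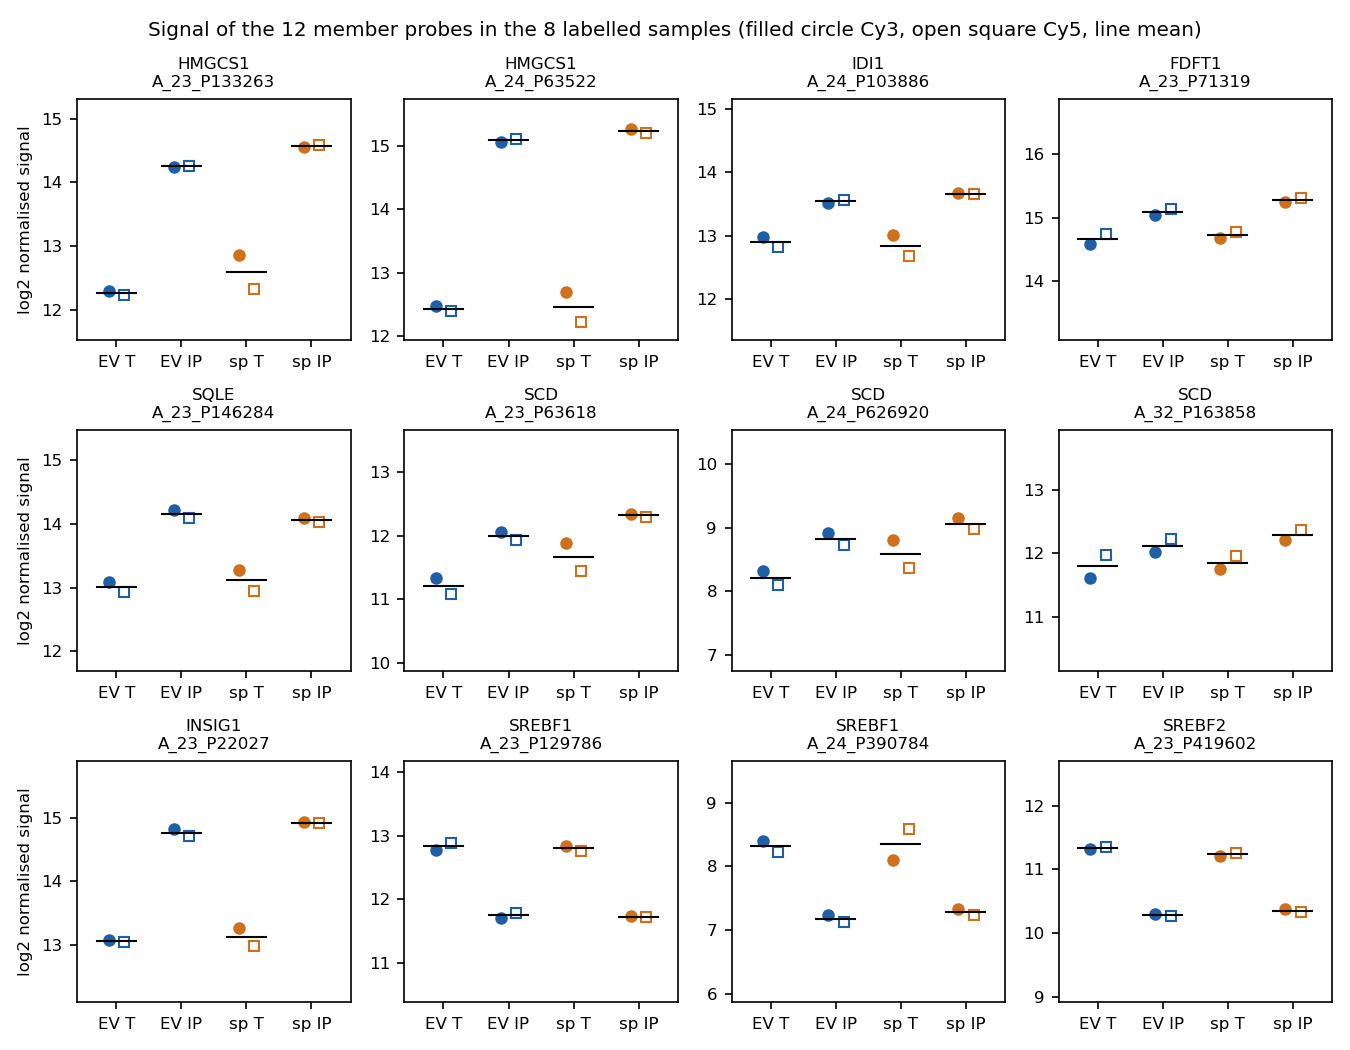
Signal of each member probe in the 8 labelled samples, as log2 normalised signal on the vertical axis (each panel spans the same log2 distance), with EV in blue and miR-155 sponge (sp) in orange; filled circles are Cy3, open squares Cy5 and lines the mean of both. HMGCS1, INSIG1 and SQLE were higher in IP than in T and SREBF1 and SREBF2 lower, with little distance between EV and sponge cells.

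HMGCS1 encodes the cytosolic HMG-CoA synthase, an early step on the way to mevalonate. Its probe A_24_P63522 had log2 normalised signals in T of 12.47 (Cy3) and 12.40 (Cy5) in EV cells and of 12.70 and 12.23 in sponge cells. In the IP fraction the signals were 15.06 and 15.10 in EV cells and 15.27 and 15.20 in sponge cells. All IP values lay far above all T values, while the T values of EV and sponge cells overlapped. The IP/T ratio was 6.27-fold in EV cells (log2 2.65 ± 0.03) and 6.84-fold in sponge cells (log2 2.77 ± 0.38), and 2.66% of the kept probes reached the EV ratio. The other HMGCS1 probe, A_23_P133263, had T signals of 12.29 and 12.22 in EV cells and 12.85 and 12.33 in sponge cells, and IP signals of 14.25 and 14.26 in EV cells and 14.56 and 14.59 in sponge cells. Here too IP and T did not overlap, and the sponge values lay above the EV values in either fraction, in T by a narrow margin in Cy5. Its ratios were 3.99-fold (log2 2.00 ± 0.04) in EV and 3.96-fold (log2 1.98 ± 0.35) in sponge cells, so both probes placed HMGCS1 as the member with the highest ratio and disagreed on its size.

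IDI1 isomerises isopentenyl diphosphate, the building block of all isoprenoids, and FDFT1 (squalene synthase) joins farnesyl diphosphate into squalene. The IDI1 probe A_24_P103886 had T signals between 12.68 and 13.01 and IP signals between 13.52 and 13.67 over both populations. Its IP/T ratio was 1.55-fold in EV cells (log2 0.63 ± 0.07) and 1.76-fold in sponge cells (log2 0.82 ± 0.24). FDFT1, measured by probe A_23_P71319, ranged from 14.59 to 14.77 in T and from 15.04 to 15.30 in IP, with ratios of 1.34-fold (log2 0.42 ± 0.17) and 1.46-fold (log2 0.54 ± 0.11). Neither gene had overlapping IP and T signals, and neither came to a 2-fold ratio.

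SQLE encodes squalene epoxidase, which takes the first oxygen-requiring step after squalene. Its probe A_23_P146284 gave T signals of 13.08 and 12.93 in EV cells and 13.28 and 12.94 in sponge cells, and IP signals of 14.22 and 14.10 in EV cells and 14.09 and 14.04 in sponge cells. IP stayed above T everywhere, with sponge IP the lower of the IP samples. The ratio was 2.22-fold in EV cells (log2 1.15 ± 0.20) and 1.93-fold in sponge cells (log2 0.95 ± 0.28). Both ratios therefore lay closer to the 2-fold line than their own dye spread. Matched by dye orientation, the log2 ratio differed by -0.20 ± 0.09 between sponge and EV cells.

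SCD, the stearoyl-CoA desaturase that makes monounsaturated fatty acids, has 3 probes. Probe A_23_P63618 had T signals of 11.34 and 11.07 in EV cells and 11.88 and 11.45 in sponge cells, and IP signals of 12.06 and 11.93 in EV cells and 12.35 and 12.29 in sponge cells. Sponge values exceeded EV values without overlap in T and in IP. The IP/T ratios of this probe were 1.73-fold (log2 0.79 ± 0.28) and 1.58-fold (log2 0.66 ± 0.34). For A_24_P626920 they were 1.53-fold and 1.39-fold, and for A_32_P163858 1.25-fold (log2 0.32 ± 0.39) and 1.35-fold, so the SCD probes agreed on the side of the ratio, and for the last of them in EV cells the dye spread was larger than the ratio itself.

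INSIG1 retains SCAP and the SREBP precursors in the endoplasmic reticulum and is itself an SREBP target. Its probe A_23_P22027 had T signals of 13.08 and 13.05 in EV cells and 13.27 and 12.99 in sponge cells. The IP signals were 14.82 and 14.71 in EV cells and 14.93 and 14.92 in sponge cells. IP and T stood clearly apart and the EV and sponge values of the T fraction overlapped. The IP/T ratio was 3.24-fold in EV cells (log2 1.70 ± 0.10) and 3.47-fold in sponge cells (log2 1.79 ± 0.20).

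SREBF1 encodes SREBP-1, which acts mainly on fatty acid genes, and SREBF2 encodes SREBP-2, which acts mainly on cholesterol genes. SREBF1 probe A_23_P129786 had T signals of 12.77 and 12.88 in EV cells and 12.83 and 12.76 in sponge cells, and IP signals of 11.70 and 11.79 in EV cells and 11.73 and 11.71 in sponge cells. SREBF2 probe A_23_P419602 had T signals of 11.31 and 11.35 in EV cells and 11.21 and 11.27 in sponge cells, and IP signals of 10.29 and 10.27 in EV cells and 10.37 and 10.34 in sponge cells. Both genes thus had every IP value below every T value, the reverse of HMGCS1 and INSIG1. The SREBF1 ratio was 0.471 in EV cells (log2 -1.09 ± 0.14) and 0.474 in sponge cells (log2 -1.08 ± 0.06). The SREBF2 ratio was 0.484 (log2 -1.05 ± 0.01) and 0.542 (log2 -0.88 ± 0.02).

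The dimmer SREBF1 probe A_24_P390784 had T signals between 8.11 and 8.58 and IP signals between 7.12 and 7.33, and its ratios were 0.454 in EV cells (log2 -1.14 ± 0.20) and 0.479 in sponge cells (log2 -1.06 ± 0.28). The low side for SREBF1 and SREBF2 was kept under every normalisation run, but its size was not. With normexp background correction none of the 3 probes stayed at 0.5 or less, and the log2 ratio in EV cells came to as little as -0.82 for A_23_P129786, -0.14 for A_24_P390784 and -0.70 for SREBF2. The share of all kept probes at 0.5 or less in EV cells fell in these settings too, from 19.0% to 5.80% with loess and Aquantile and to 6.72% with quantile normalisation, and the share at 2 or more fell from 17.5% to 9.74% and 8.26%. The count of member probes at 2 or more in EV cells was 4 in both settings.

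**Figure D2:**
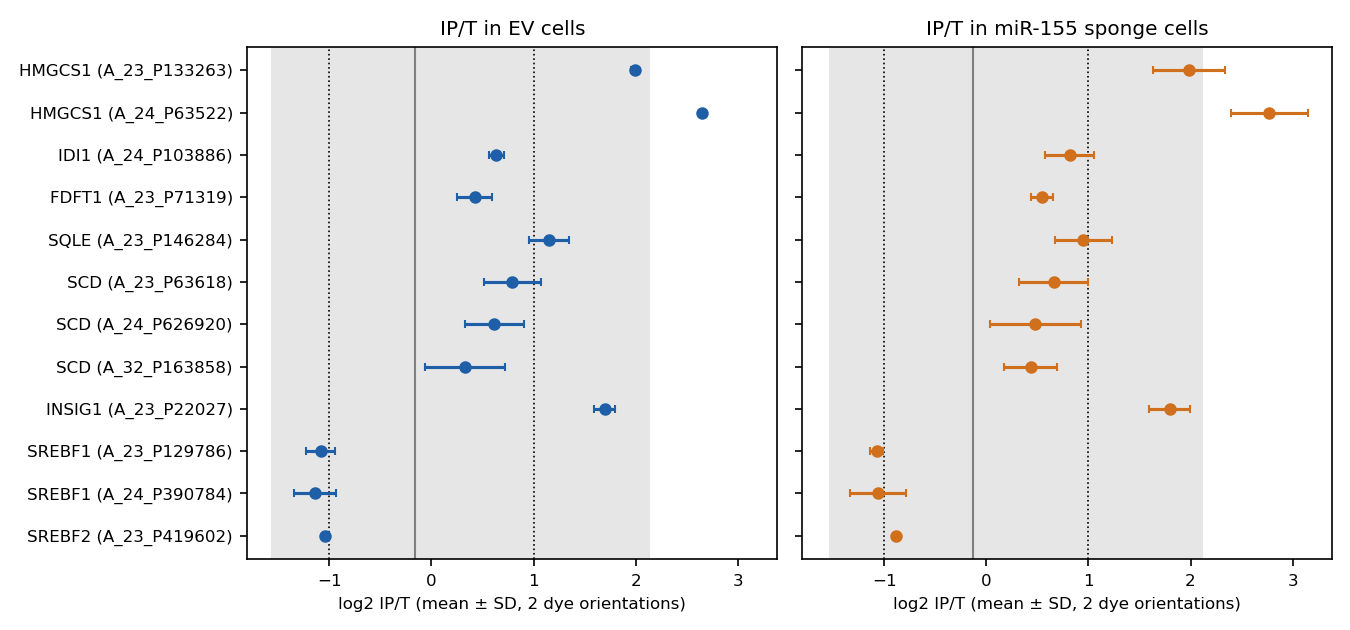
IP/T ratio of each member probe on the log2 scale (horizontal axis) in EV cells (left, blue) and miR-155 sponge cells (right, orange); points are means and bars the SD over 2 dye orientations, the grey band spans the 5th to 95th percentile of the 22470 kept probes, the grey line is their median and the dotted lines mark ratios of 0.5 and 2. HMGCS1 and INSIG1 lie past the right dotted line in both populations, and SREBF1 past the left one.

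Ordered by log2 IP/T in EV cells, with the means of a gene's probes read together, HMGCS1 came first, then INSIG1, SQLE, IDI1 and SCD, FDFT1, and last SREBF2 and SREBF1. HMGCS1, INSIG1 and SQLE were each further from the next than their dye spread. The SCD probes could not be ordered against IDI1 or FDFT1, since the SCD values of 0.32 ± 0.39 to 0.79 ± 0.28 cover both. IDI1 (0.63 ± 0.07) was above FDFT1 (0.42 ± 0.17) in both dye orientations. Likewise, SREBF2 at -1.05 and the SREBF1 probes at -1.09 ± 0.14 and -1.14 ± 0.20 did not differ beyond their spread.

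The second comparison of the design set sponge cells against EV cells. It used T for a transcript's relative level in total RNA and IP for its relative level in the Ago2 fraction. How far the sponge lowered the available miR-155 was not measured here. The study's authors propose that the sponge did not capture all of the abundant miR-155 in L1236 cells. No member probe differed by 1.5-fold or more between sponge and EV cells. In T the count was 0 of 12 in either direction, where 1.37% of all kept probes were higher and 1.56% lower by that rule. In IP it was again 0 of 12, with 0.859% higher and 0.645% lower among all kept probes, and for the IP/T ratio 0 of 12, with 1.67% and 1.34%. Since bulk RNA was measured, fewer cells with a transcript and less transcript per cell cannot be told apart.

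Without regard to size, 5 of the 12 probes were higher in sponge than in EV T fractions with both dyes (28.7% of all kept probes were), and 1 was lower (33.4%). The 5 were HMGCS1 A_23_P133263, SQLE, FDFT1 and the SCD probes A_23_P63618 and A_24_P626920, and the lower one was SREBF2. In the IP fraction 10 of 12 were higher with both dyes, against 37.9% of all kept probes, and only SQLE was lower, against 35.7%. The median log2 difference of the members was 0.06 ± 0.12 in T and 0.16 ± 0.02 in IP, beside -0.02 and 0.01 over all kept probes. The 12 probes stand for 8 genes and share the same 4 RNA samples.

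SCD had the largest difference among the members in the values as normalised here. Its probes A_23_P63618 and A_24_P626920 were 1.37-fold (log2 0.46 ± 0.12) and 1.30-fold (log2 0.37 ± 0.17) higher in sponge T, and 3.04% and 4.93% of the kept probes had a difference at least as high. In sponge IP they were 1.25-fold (log2 0.32 ± 0.06) and 1.18-fold (log2 0.24 ± 0.01) higher. The remaining SCD probe, A_32_P163858, differed by 0.05 ± 0.11 in T and by 0.16 ± 0.03 in IP, so the probes did not give the same value for T. With normexp correction A_23_P63618 came to 0.36 or 0.30 in T and A_24_P626920 to 0.17 or 0.15 in T and 0.08 or 0.11 in IP, and HMGCS1 A_23_P133263, at 0.40 or 0.41 in T, then had the largest difference.

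The HMGCS1 probe A_23_P133263 was 1.26-fold higher in sponge T (log2 0.33 ± 0.33), a difference about equal to its dye spread, and 1.25-fold higher in sponge IP (log2 0.32 ± 0.01). For HMGCS1 A_24_P63522 the differences were 0.03 ± 0.28 in T and 0.15 ± 0.07 in IP. In T its sign changed with the dye, from 0.22 in Cy3 to -0.17 in Cy5. The sponge T sample in Cy5 was also the one with the fewest spots above background, and its part in these spreads was not tested.

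SREBF2 had small differences. It was lower in sponge T by a log2 difference of -0.09 ± 0.02 and higher in sponge IP by 0.07 ± 0.01, so that its IP/T ratio rose by 0.16 ± 0.01, which is 1.12-fold. The T difference came to -0.15 or -0.14 with normexp correction, a shift larger than the dye spread. SQLE went the other way, with 0.11 ± 0.13 in T, -0.09 ± 0.05 in IP and -0.20 ± 0.09 in the ratio. INSIG1 (0.07 ± 0.18 in T, 0.16 ± 0.08 in IP), IDI1 (-0.06 ± 0.13 and 0.12 ± 0.04) and FDFT1 (0.06 ± 0.05 and 0.19 ± 0.02) had a difference larger than the dye spread in IP, which among the 3 held in T for FDFT1 only. SREBF1 showed -0.03 ± 0.13 in T and -0.02 ± 0.07 in IP with its brighter probe, and 0.03 ± 0.46 and 0.11 ± 0.02 with A_24_P390784, so that its probes had opposite signs in IP. The latter value fell to 0.03 or 0.02 with normexp correction. The change of the IP/T ratio ran from -0.20 to 0.18 over the members, with 5 probes higher in both dye orientations (35.1% of all kept probes) and 3 lower (28.8%).

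**Figure D3:**
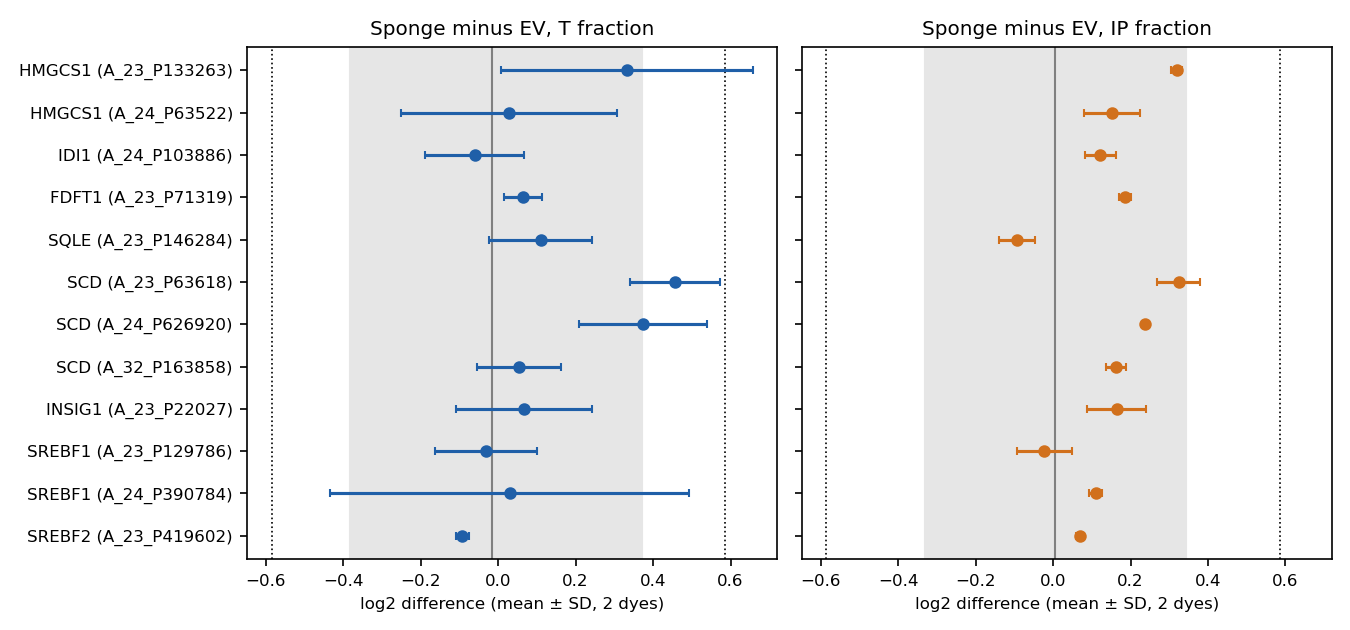
Sponge minus EV on the log2 scale (horizontal axis) for each member probe in the T fraction (left, blue) and the IP fraction (right, orange); points are means and bars the SD over 2 dyes, the grey band spans the 5th to 95th percentile of the kept probes, the grey line is their median and the dotted lines mark 1.5-fold. No member reaches a dotted line; SCD A_23_P63618 in T comes nearest at 0.46, and 10 of 12 IP points are higher with both dyes, from SREBF2 at 0.07 to SCD at 0.32, with SQLE at -0.09.

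Beyond the members, the other enzymes of cholesterol synthesis were spread over both sides of the IP/T comparison. Of 18 further enzyme genes, 17 had a kept probe, 25 probes in all. In EV cells 4 of the 25 probes, from 3 genes, had a ratio of 2 or more, close to the 17.5% of all kept probes. These were MSMO1, which oxidises the sterol C4 methyl groups (log2 2.37 ± 0.22), LBR, a sterol reductase of the nuclear envelope (1.58 ± 0.29), and SC5D, which sets a double bond late in the pathway (1.41 ± 0.12 and 1.18 ± 0.04). A ratio of 0.5 or less was seen for 9 of the 25, from 5 genes, beside 19.0% of all kept probes. LSS, which cyclises squalene epoxide to lanosterol, was low with all 4 probes (-1.61 to -1.14), as were PMVK, the phosphomevalonate kinase (-1.36 ± 0.10), NSDHL (-1.30 ± 0.19), both probes of HSD17B7 (-1.18 and -1.16) and 1 of 2 probes of TM7SF2 (-1.01 ± 0.09). The median over these 25 probes was -0.76 ± 0.26, below that of all kept probes and of the members. Under normexp correction the 9 low probes came down to 4 or 2 and the 4 high ones to 2 or 3.

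Among the proteins that control SREBP processing, 6 of 7 further genes had a kept probe, 8 probes in all. INSIG2, the paralogue of INSIG1, was high with both probes in EV cells (1.52 ± 0.41 and 1.37 ± 0.04), and in sponge cells it came to 1.58 with either probe. RNF139, a sterol-linked ubiquitin ligase, had a log2 ratio of 2.84 ± 0.14. SCAP, the SREBP escort, lay on the low side with SREBF1 and SREBF2 (-1.36 ± 0.08). In all, 3 of the 8 probes were at 2 or more and 1 was at 0.5 or less in EV cells (17.5% and 19.0% of all kept probes). With normexp correction INSIG2 A_24_P944458 came to as little as 0.83, which left 2 probes at 2 or more with quantile normalisation, and SCAP to -0.99.

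The genes of sterol uptake and efflux had the highest median ratio of the 4 lists. Of 10 kept probes of 8 genes, 5 had a ratio of 2 or more and 1 of 0.5 or less in EV cells (17.5% and 19.0% of all kept probes). The median log2 ratio was 1.08 ± 0.0006. That SD compares the medians of the 2 dye orientations, which nearly coincided, and is not the spread of single probes. MYLIP, a sterol-regulated ubiquitin ligase that limits sterol uptake, reached 3.63 ± 0.21 and 3.13 ± 0.24. NR1H2, a sterol-activated nuclear receptor (1.87 and 1.43), and STARD4, a cholesterol carrier (1.28 ± 0.23), were high as well, while NR1H3, the other receptor of that pair, was low (-1.16 ± 0.06). Under normexp correction 4 of the 10 probes had a ratio of 2 or more (9.74% or 8.26% of all kept probes), none was at 0.5 or less, with NR1H3 at as little as -0.76, and the median was 0.56 or 0.48. In the fatty acid list 14 probes of 10 further genes were kept. In EV cells 2 of the 14 had a ratio of 2 or more and 2 of 0.5 or less. These shares were not above the 17.5% and 19.0% of all kept probes. ELOVL5 (2.25 ± 0.05) and ELOVL6 (1.21 ± 0.22), both elongases, were the ones at 2 or more. FASN, the fatty acid synthase (-1.71 ± 0.47), and ACACA, the acetyl-CoA carboxylase (-1.45 ± 0.47), were at 0.5 or less, and the other probes of ELOVL5 (0.16 ± 0.02) and ACACA (-0.02 ± 0.04) were near 0. With normexp correction only ELOVL5 remained past 2-fold in this list, and the ratios came to as little as 0.58 for ELOVL6, -0.41 for FASN and -0.13 for ACACA.

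**Figure D4:**
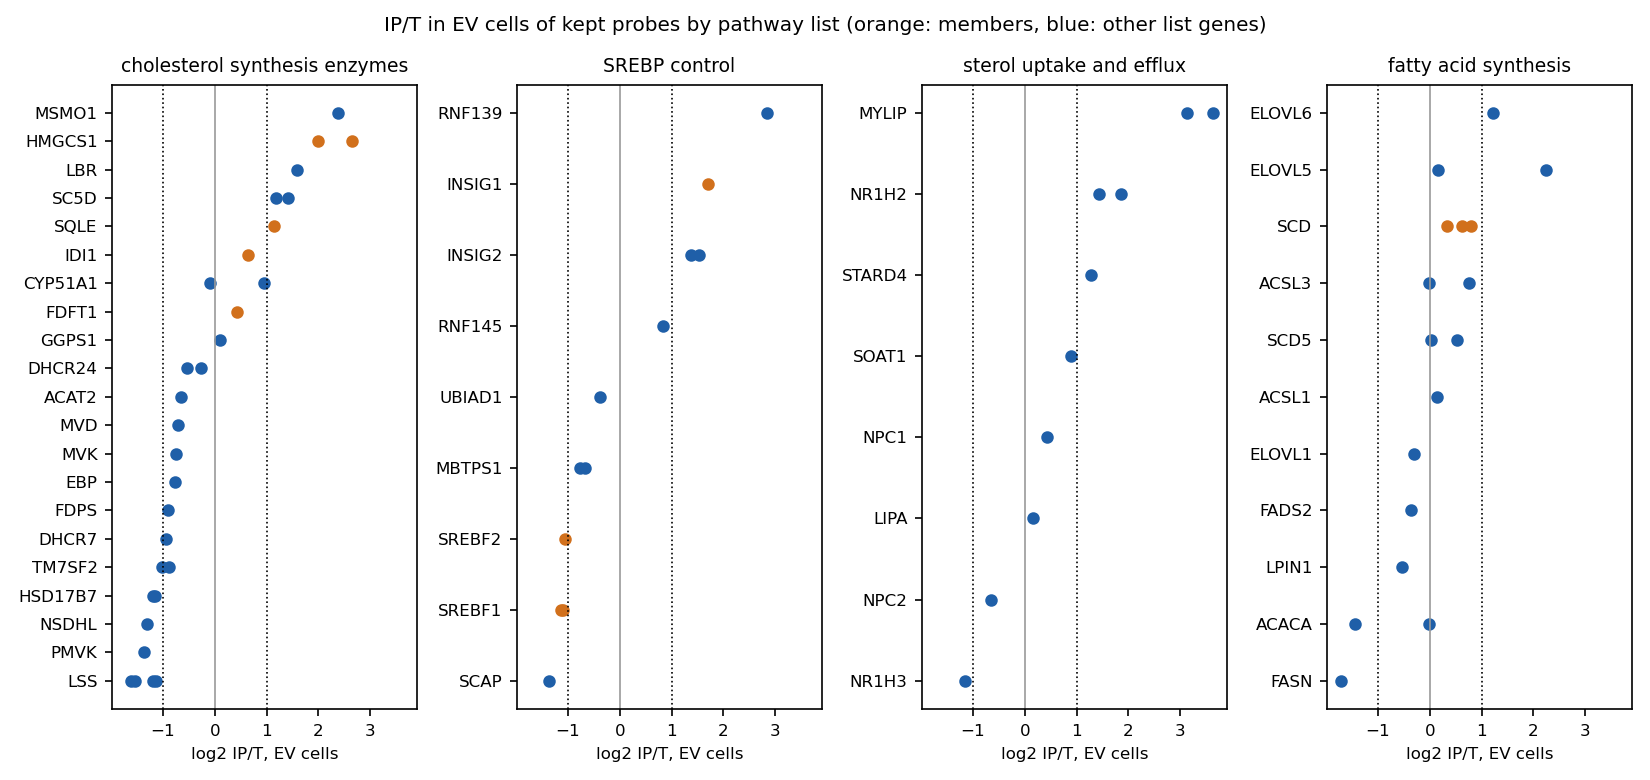
Log2 IP/T in EV cells (horizontal axis) of every kept probe counted in the 4 pathway lists, genes in order of their mean; orange points are the members, blue points the other genes of a list, and dotted lines mark ratios of 0.5 and 2. HMGCS1 and MSMO1 lead the enzymes and LSS closes them, INSIG1 and INSIG2 lie on the high side of the control genes with SREBF1, SREBF2 and SCAP on the low side, and MYLIP leads the uptake genes.

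Between sponge and EV cells the further enzymes moved little, as the members did. By the 1.5-fold rule 1 of 25 probes was higher in sponge T, DHCR7, the last reductase of one branch (log2 0.59 ± 0.20), and none was called in IP (1.37% and 0.859% of all kept probes were called higher). With both dyes 12 of the 25 were higher and 4 lower in T, where 28.7% and 33.4% of all kept probes were. In IP 19 were higher and 3 lower, where 37.9% and 35.7% of all kept probes were. The median log2 difference was 0.08 ± 0.09 in T and 0.22 ± 0.07 in IP, next to 0.06 and 0.16 for the members. MVK, the mevalonate kinase, named after its values were seen, was the 1 probe called for the IP/T ratio (0.68 ± 0.10). FASN was the 1 probe of the fatty acid list called in IP (0.60 ± 0.05). With normexp correction these differences became 0.22 or 0.26 for DHCR7, 0.30 for MVK and 0.28 or 0.17 for FASN, all under 1.5-fold. The control and uptake lists had no call in T, in IP or in the ratio.

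The mean profile of the members, each gene centred on its own mean over the 4 RNA samples, was nearest to those of CLK1, PAICS and PPP1R21 among 11140 genes outside the lists, with Euclidean distances of 0.0033, 0.027 and 0.032 on the log2 scale. The members themselves lay at 0.11 (IDI1), 0.17 (FDFT1), 0.26 (SCD) and 0.45 (SQLE) from that mean profile and at 1.12 (INSIG1) to 2.08 (HMGCS1) for the others, each gene taken at its brightest probe, which for SCD is A_32_P163858. SREBF1 (1.71) and SREBF2 (1.60) ran opposite to the mean profile, with T above IP, so that profile averages members of opposed direction. Outside the lists 118 genes were nearer to the mean profile than IDI1, 331 than FDFT1, 875 than SCD and 2062 than SQLE, so the members did not stand apart by their nearness to it.

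Markers were read in T as detection only. All 7 Hodgkin cell markers, among them TNFRSF8 (CD30) and CCL17, were detected above background by at least 1 probe in each of the 4 T channels, as were 4 of 6 B cell identity genes, which Hodgkin cells often lose, with MS4A1 in none. Of 7 T cell and monocyte genes, 4 were detected in all T channels (CD3E, CD8A, CD14 and CSF1R) and CD3D, CD3G and LYZ in none.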

How the data were processed

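Total RNA (T) and Ago2-IP RNA of EV and miR-155 sponge cells was hybridised to Agilent two-colour arrays with dyes exchanged between arrays. The authors extracted background-subtracted, dye-corrected spot intensity values with Agilent Feature Extraction (version 10.5.1.1 per the labels, 10.7.3.1 per the file headers) and deposited each array under both of its labelled samples. The deposited series table holds the authors' log2 values after quantile normalisation, per the study's methods. It had 22282 probes, and its columns differed from the values used here by a median of at most 0.003 (log2).

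Following those methods, log2 processed signals of the own-dye channels were quantile normalised over 8 channels (R 4.3.3, limma 3.58.1), which makes values relative within a channel. Probes were kept if well above background in at least 4 channels (25869 of 41000) and if Cy3 and Cy5 differed by at most 2-fold in each RNA sample (22470). Cy3 and Cy5 were averaged. IP/T is the ratio within a population. Calls were IP/T of 2 or more or 0.5 or less, and sponge over EV of 1.5-fold or more with the same sign in both dyes. The scripts were tested on simulated data. No spot was saturated. Precision is limited by there being 4 arrays.

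Accessions were named through RefSeq (GRCh38.p14, names only), which matched 69.5% of kept probes. The members and gene lists were chosen with earlier results of these data known. Some genes of the lists are not reported here and were left out of the list counts. Named beside the members were list genes past a call and the 3 genes with the nearest profile. Alternatives were normexp background correction (offset 50) with loess and Aquantile or with quantile normalisation, scaling to the 75th percentile, the authors' values, other detection and dye filters, 1 probe a gene and 1 dye orientation alone. The same alternatives for the counts at 0.5 or less were added after seeing the data.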

Additional observations from a re-analysis of the deposited data

How the results depend on the processing

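The count of member probes with IP/T of 2 or more held within 1.5 times under every alternative run (4 in EV and 3 in sponge cells as reported, 3 of 8 and 2 of 8 with 1 probe a gene, and 4 in sponge cells with normexp, loess and Aquantile). The other detection and dye filters kept the same 12 probes, so they could not move any member count. The authors' values differ from those used here by a median of at most 0.003 (log2), so they are close to a repeat. The count at 0.5 or less went from 3 in EV and 2 in sponge cells to 0 in both with normexp, loess and Aquantile and with normexp and quantile normalisation, and to 1 in sponge cells with 1 probe a gene; the cause was not tested. These 2 settings also moved the median log2 IP/T of all kept probes in EV cells from -0.16 to 0.0005 and -0.05, and the members' median stood 0.61 and 0.56 above it, against 0.78. With 1 dye orientation or 1 dye alone the members' median IP/T ranged from 0.587 to 0.753 in EV and from 0.617 to 0.847 in sponge cells, the sponge difference from -0.0037 to 0.160 in T and from 0.133 to 0.166 in IP, and the count at 0.5 or less was 2 in EV and 1 to 2 in sponge cells. Of 12 probes, the sign was kept over the 4 normalisations and both dye settings by 12 for IP/T in EV, 12 for IP/T in sponge cells, 11 for the IP difference (SREBF1 A_23_P129786 changed) and 6 for the T difference. IP and T were paired by array in the IP/T ratios. No pairing over replicates was possible because each group is 1 RNA sample and the labels number no replicates.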
